A study of Mus musculus with 4 samples.

Results

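The 38 genes described here encode the core engine of the cell division cycle: the cyclins and cyclin-dependent kinases (CDKs) of G1, S and G2/M, the CDC25 phosphatases and WEE1-type kinases that switch CDK1 and CDK2 on and off, the RB family, the E2F transcription factors with their DP partners, the ubiquitin ligase subunit SKP2 with the CKS proteins, the CDK-activating kinase, and CDK5. The members were set as a list of gene symbols by their function. All 38 were found among the 53845 rows of the count table, and 37 had enough reads to be tested among 17504 genes.

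In G1, D-type cyclins bind CDK4 and CDK6 and phosphorylate RB, which releases E2F factors from repression. E2F then drives transcription of cyclin E, cyclin A and the DNA replication genes, and cyclin E with CDK2 carries cells into S phase. Cyclins A and B with CDK1 drive mitosis, once CDC25 phosphatases remove the phosphates that WEE1 and PKMYT1 place on CDK1. In the intestinal crypt these proteins act mainly in the stem cells at the base and in the transit-amplifying cells above them, which divide rapidly, whereas Paneth cells and the differentiated cells of the villus have left the cycle.

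RNA-seq was carried out on small intestinal crypts of C57BL/6 mice, with 2 libraries from wild type (WT) mice and 2 from Vil-CREPTKO mice. In Vil-CREPTKO mice, villin-cre removes a floxed exon of CREPT (Rprd1b), a factor that binds RNA polymerase II, from the intestinal epithelium. The villin promoter is active from gut development onward and connective tissue cells keep CREPT, so the mice model a lifelong loss in the epithelium alone. No treatment was given, and the study describes its mice in general as young adults of both sexes, without an age for each library. The methods call the libraries biological replicates, and p-values measure only the spread between them.

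Rprd1b was read at 60.47 and 61.56 counts per 1000000 reads (CPM, scaled by the trimmed mean of M values) in the WT libraries and at 26.28 and 29.00 CPM in the Vil-CREPTKO libraries. This is a log2 fold change of -1.14 ± 0.12 (SE) at an adjusted p of 0.0041 in edgeR's quasi-likelihood test with Benjamini-Hochberg adjustment over all genes tested, so the libraries followed their labels. The total count was between 47241049 and 49369315 reads per library. Marker sums are given as counts per 1000000 reads of the library total, without the trimmed mean scaling. Epithelial markers were abundant in every library (summed level 7774 to 8616 CPM over 7 genes), and 7 stromal markers summed to 12.2 to 22 CPM, with no stromal marker at 0 in all libraries. Vil-CREPTKO replicate 1 stood apart in its mitochondrial share of counts, 10.2% against 6.75% to 7.62% in the other 3 libraries, in the summed crypt base stem cell markers, 1416 against 1898 to 2487 CPM, and in the summed enterocyte markers, 20603 against 13240 to 16302 CPM. The 6 tuft cell markers were all lower in Vil-CREPTKO (summed level 211 and 234 against 109 and 113 CPM), and 3 of them passed an adjusted p of 0.05. WT replicate 2 carried 42463 reads of Xist and no read of the Y-linked genes, and the other 3 libraries carried 13 to 26 and 7126 to 7553, so the WT group held 1 library of each sex.

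Of the 37 tested genes, Cdk4 alone was lower in Vil-CREPTKO at an adjusted p under 0.05, against 2.29% of all genes tested, and none was higher, against 0.423% of all genes. With the study's added requirement of an absolute log2 fold change above 1, edgeR called none of the 37, and DESeq2 also called none, whereas 1.64% of all genes were called. At an unadjusted p under 0.05, 6 genes were lower (16.2%, background 9.76%), namely Cdk4, Cdk5, Cdc25b, Ccnd2, E2f1 and Cdk2, and none was higher (background 4.49%). The log2 fold change was negative for 24 of 37 genes (64.9%), against 50.9% of all genes. In 13 genes both Vil-CREPTKO libraries lay below both WT libraries (35.1%, background 24.2%), and in 5 both lay above (13.5%, background 21%). The median log2 fold change of the 37 genes was -0.048, beside -0.00604 over all genes. Cdk4, Cdk5, Cdc25b and Cdc25c were also followed by the study with quantitative RT-PCR, and how they were chosen for it is not given in the sources used here, so their direction is not taken as independent evidence. Without those 4, the unadjusted test left 3 lower genes among 33 (9.09%, background 9.76%), and the median was -0.0459. Both Vil-CREPTKO libraries lay below both WT libraries in 27.3% of these 33 (background 24.2%) and above both in 15.2% (background 21%). In bulk crypt RNA, fewer cycling cells and less RNA per cycling cell cannot be told apart.

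**Figure D1:**
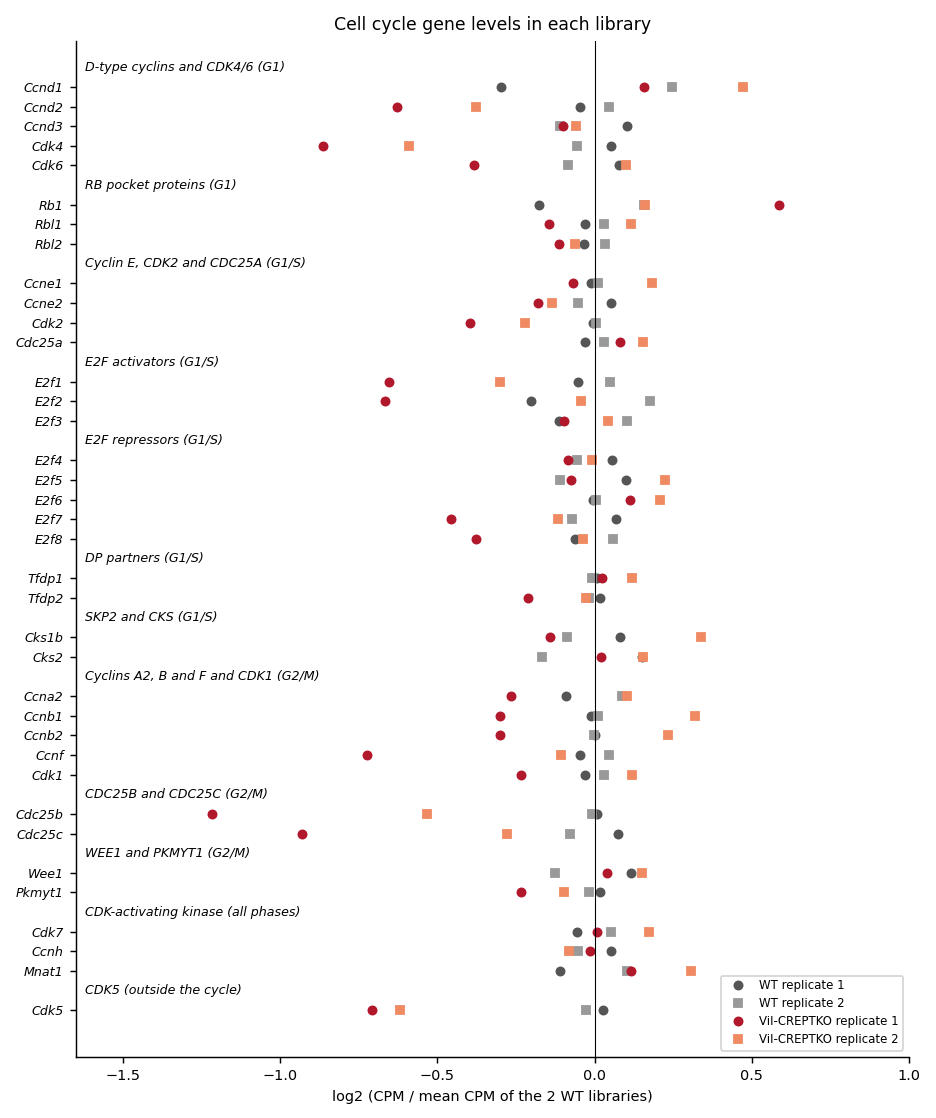
Each row is 1 of the 37 tested genes, grouped by role, and each point is 1 library (grey, WT; red and orange, Vil-CREPTKO replicates 1 and 2), plotted as log2 of its CPM over the mean CPM of the WT libraries. Cdk4, Cdk5, Cdc25b and Ccnd2 have both Vil-CREPTKO points far left of the WT points, and in 35 of 37 rows the red circle lies left of the orange square.

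Among the G1 kinases and cyclins, the plainest difference was in Cdk4, which encodes a kinase partner of the D-type cyclins (ENSMUSG00000006728, GRCm38 chr10:127063534-127067920, plus strand). Cdk4 was read at 147 and 136.4 CPM in WT and at 77.91 and 94.13 CPM in Vil-CREPTKO. Both Vil-CREPTKO libraries lay well below both WT libraries, at 60.7% of the WT mean. The fitted log2 fold change, -0.72 ± 0.14 (SE; 95% interval -1.03 to -0.41), had an adjusted p of 0.032 in edgeR's quasi-likelihood test. The call depended on single libraries: when WT replicate 1 was left out the adjusted p was 0.0755 (log2 fold change -0.666), and when Vil-CREPTKO replicate 1 was left out it was 0.0842 (-0.593). Leaving out either replicate 2 kept the call, at 0.0391 for WT and 0.0124 for Vil-CREPTKO. With a correction for GC content and length it was 0.0646 (log2 fold change -0.632). Over all alternatives of this test, the adjusted p ran from 0.000326 to 0.0842. Tspan31, whose exons overlap those of Cdk4 by 641 bases on the opposite strand, had a log2 fold change of -0.06.

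Cdk6, the second D-cyclin kinase, was read at 70.97 and 63.45 CPM in WT and at 51.47 and 72.11 CPM in Vil-CREPTKO, and the groups overlapped. The interval for its log2 fold change (-0.50 to 0.26) includes both no difference and a fall of moderate size. Per length, Cdk4 exceeded Cdk6 by 11.6 and 12.1 times in the WT libraries and by 8.5 and 7.33 times in the Vil-CREPTKO libraries, on a TPM scale (reads per base of transcript, scaled to a fixed total) computed from the counts and the length of 1 transcript per gene. Cdk6 thus made up 7.92% and 7.65% of the TPM of the pair in WT and 10.5% and 12% in Vil-CREPTKO, with no overlap between groups. With 2 libraries against 2, an exact permutation test of such a ratio cannot give a two-sided p below 0.333, and none is given.

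Ccnd2, which encodes cyclin D2, was read at 226.6 and 241.3 CPM in WT and at 151.4 and 180.3 CPM in Vil-CREPTKO. The Vil-CREPTKO libraries were the lower pair, at 70.9% of the WT mean, with a log2 fold change of -0.50 ± 0.15 (SE; unadjusted p = 0.0094, adjusted p = 0.15 in edgeR's quasi-likelihood test). DESeq2 gave an adjusted p of 0.0456. Ccnd1, which encodes cyclin D1, a Wnt-responsive G1 cyclin, was read at 62.49 and 91.26 CPM in WT and at 85.73 and 106.7 CPM in Vil-CREPTKO, with overlapping groups and a 95% interval of -0.11 to 0.75. Ccnd3, the remaining D-type cyclin, lay between 22.04 and 25.52 CPM in all 4 libraries, and its log2 fold change was -0.08 (interval -0.41 to 0.25).

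Within the D-cyclin family, the shares of Ccnd1 and Ccnd2 did not overlap between the groups. Shares of a family sum to a fixed total, so the 2 shifts are not separate observations, and the lower Ccnd2 level given above enters both. The TPM ratios of Rb1 to Rbl1 and Rbl2, and of Ccnb1 to Cdk1, overlapped between the groups. With WT replicate 1 left out, the log2 fold change of Ccnd1 was 0.075, against 0.324 with all libraries. On the TPM scale Ccnd2 made up 55.4% and 52.3% of the D-cyclin level in WT and 41.7% and 42% in Vil-CREPTKO, and Ccnd1 made up 25.9% and 33.4% against 40% and 42.1%. The Ccnd1 to Ccnd2 ratio was 0.467 and 0.64 for WT against 0.958 and 1 for Vil-CREPTKO, so the 2 cyclins stood at nearly equal levels in both Vil-CREPTKO libraries and at clearly unequal levels in WT. Exons of Ccnd1 overlap the opposite-strand gene LTO1 by 1100 bases, and LTO1 had a log2 fold change of -0.03.

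**Figure D2:**
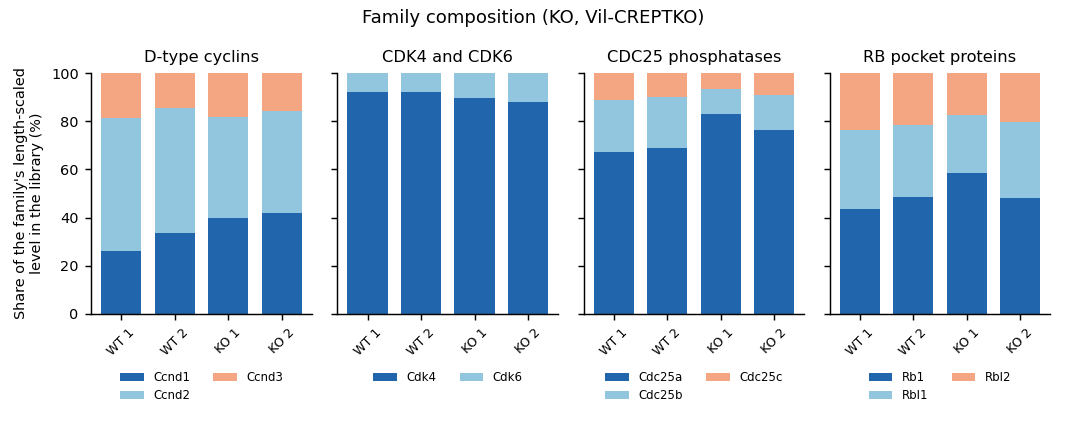
Stacked bars give, for each library, the share of a family's summed length-scaled level (TPM) carried by each gene, in percent. Ccnd2 carries 55.4% and 52.3% of the D-type cyclin level in WT and 41.7% and 42% in Vil-CREPTKO, and Cdc25b 21.6% and 21% of the CDC25 level against 10.6% and 14.8%.

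The pocket proteins are the substrates through which the G1 kinases act. Rb1, which encodes RB itself, was read at 60.45 and 76.13 CPM in WT and at 102.6 and 76.33 CPM in Vil-CREPTKO. Replicate 1 was high and replicate 2 was almost level with the higher WT library, and the log2 fold change of 0.39 ± 0.17 (SE) did not pass (unadjusted p = 0.0501, adjusted p = 0.351 in edgeR's quasi-likelihood test). Rbl1 (p107) lay between 43.67 and 52.4 CPM, with an interval of -0.31 to 0.29. Rbl2 (p130), the pocket protein of resting cells, lay between 32.44 and 35.88 CPM, with an interval of -0.36 to 0.19.

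Of cyclin E, CDK2 and CDC25A, which act at the start of S phase, Cdk2 alone had an unadjusted p under 0.05. Cdk2, the kinase partner of cyclins E and A, was read at 46.85 and 47.18 CPM in WT and at 35.71 and 40.3 CPM in Vil-CREPTKO, or 80.8% of the WT mean. The groups did not overlap, at a log2 fold change of -0.31 ± 0.12 (SE; unadjusted p = 0.0356, adjusted p = 0.297 in edgeR's quasi-likelihood test). Ccne1 and Ccne2, its cyclin E partners, had log2 fold changes of 0.06 (interval -0.34 to 0.47) and -0.16 (-0.53 to 0.22). Ccne2 was lower in both Vil-CREPTKO libraries (10.72 and 11.06 CPM against 12.58 and 11.7 CPM). Cdc25a, the phosphatase that activates CDK2 at G1/S, was slightly higher in both Vil-CREPTKO libraries (98.69 and 103.9 CPM against 91.38 and 95.37 CPM), with an interval of -0.15 to 0.38.

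The E2F family divides into activators (E2F1 to E2F3) and repressors (E2F4 to E2F8). E2f1 was read at 12.36 and 13.27 CPM in WT and at 8.145 and 10.41 CPM in Vil-CREPTKO. Both Vil-CREPTKO values were the lower ones, at a log2 fold change of -0.47 ± 0.19 (SE; unadjusted p = 0.035, adjusted p = 0.294 in edgeR's quasi-likelihood test). E2f2 was read at 38.71 and 50.33 CPM in WT and at 28.05 and 43.21 CPM in Vil-CREPTKO, and these groups overlapped (log2 fold change -0.32, interval -0.80 to 0.16). E2f3 barely differed (log2 fold change -0.02, interval -0.35 to 0.30). All 3 activators had negative values, with a median of -0.32, but relative to WT the median of Vil-CREPTKO replicate 1 was -0.654 and that of replicate 2 was -0.0428.

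None of the 5 repressor E2Fs had an unadjusted p under 0.05 in edgeR, and DESeq2 called none at an adjusted p under 0.05. E2f4, which binds p107 and p130 and holds genes silent in resting cells, was the most abundant E2F per length, at 40.3% to 45.1% of the summed TPM of the 8 E2Fs in every library. It was read at 74.36 and 68.79 CPM in WT and at 67.49 and 71.18 CPM in Vil-CREPTKO (interval -0.31 to 0.22). The atypical repressors E2f7 and E2f8, which are themselves E2F-induced, had log2 fold changes of -0.28 and -0.20, and E2f5 and E2f6 had 0.08 and 0.16. E2f6 was higher in both Vil-CREPTKO libraries and E2f7 lower in both, and neither had an unadjusted p under 0.05. The TPM ratio of activators to repressors was 0.27 and 0.34 for WT and overlapped with the 0.237 and 0.281 of Vil-CREPTKO. The DP partners Tfdp1 and Tfdp2, which dimerise with E2Fs, had log2 fold changes of 0.07 and -0.12, although 27.1% of the 50-base stretches of the Tfdp1 transcript also occur in a pseudogene.

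Skp2, the F-box protein that marks the CDK inhibitor p27 for destruction, was listed at 0 counts in all 4 libraries (GRCm38 chr15:9111985-9155425, minus strand). At these totals a count of 0 allows a level of up to 0.0588 to 0.069 CPM per library (3 counts, counting error only). Of its neighbours, Nadk2 had 0 and 2 counts in WT and 0 and 6 in Vil-CREPTKO, and Lmbrd2, whose gene overlaps Skp2 on the other strand, had 161 and 132 counts in WT and 134 and 140 in Vil-CREPTKO. Why Skp2 was at 0 in dividing crypts was not tested, so its row carries no level to compare. Cks1b and Cks2, small proteins that dock CDKs to their substrates, overlapped between the groups (log2 fold changes 0.12 and 0.09). Per length, Cks2 had the highest mean over the 4 libraries of the 37 genes (114 TPM), although Cdk4 was above it in both WT libraries, and 29.7% of its 50-base stretches are shared with a pseudogene.

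Of the mitotic cyclins and CDK1, none had an unadjusted p under 0.05 in edgeR, and DESeq2 called none at an adjusted p under 0.05. Ccnb1, the main mitotic cyclin, was read at 49.44 and 50.26 CPM in WT and at 40.45 and 62.24 CPM in Vil-CREPTKO. Ccnb2 was read at 60.23 and 60 CPM in WT and at 48.8 and 70.75 CPM in Vil-CREPTKO. The WT libraries were nearly equal for both B-type cyclins, and the Vil-CREPTKO libraries lay on either side of them, 1 below and 1 above. Cdk1, the mitotic kinase, followed the same pattern, at 51.46 and 53.72 CPM in WT and 44.71 and 57.14 CPM in Vil-CREPTKO, as did Ccna2, at 75.67 and 85.64 against 67.03 and 86.57 CPM. The 95% intervals were -0.38 to 0.47 for Ccnb1, -0.40 to 0.38 for Ccnb2, -0.37 to 0.28 for Cdk1 and -0.41 to 0.27 for Ccna2, so changes of these sizes could not be told from none. Ccnb1 shares 42.1% of its 50-base stretches with other transcripts, 34.1% with its pseudogene alone. Ccnf, which encodes the F-box protein cyclin F, was lower in both Vil-CREPTKO libraries (17.19 and 26.37 CPM against 27.48 and 29.28 CPM), with an unadjusted p of 0.0897.

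The 2 other CDC25 phosphatases were both lower. Cdc25b, which starts the activation of CDK1 before mitosis (ENSMUSG00000027330, GRCm38 chr2:131186949-131198497, plus strand), was read at 24.97 and 24.69 CPM in WT and at 10.68 and 17.17 CPM in Vil-CREPTKO. Both Vil-CREPTKO libraries were far below WT, at 56.1% of the WT mean, yet they also differed widely from each other. The difference, -0.83 ± 0.22 (SE) in log2 fold change, had an unadjusted p of 0.00426 and missed the adjusted threshold (adjusted p = 0.0964 in edgeR's quasi-likelihood test). Against Vil-CREPTKO replicate 1 alone it came to -1.21 (adjusted p = 0.00489), and against replicate 2 alone to -0.535 (adjusted p = 0.217). Cdc25c, which amplifies CDK1 activation at mitotic entry, was read at 8.266 and 7.436 CPM in WT and at 4.119 and 6.476 CPM in Vil-CREPTKO, a difference of -0.57 ± 0.25 (SE) in log2 fold change (unadjusted p = 0.0533). Per length, Cdc25b made up 21.6% and 21% of the CDC25 TPM in WT and 10.6% and 14.8% in Vil-CREPTKO, and the Cdc25b to Cdc25a ratio was 0.321 and 0.304 against 0.127 and 0.194.

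WEE1 and PKMYT1 are the kinases that oppose CDC25. Wee1 lay at 43.99 and 37.18 CPM in WT and at 41.72 and 45.07 CPM in Vil-CREPTKO, with an interval of -0.21 to 0.40. Pkmyt1, the membrane-bound CDK1 inhibitory kinase, was lower by a small margin in both Vil-CREPTKO libraries (log2 fold change -0.16, interval -0.50 to 0.17). Its exons overlap 319 bases of Paqr4 on the opposite strand, which fell by 0.91 on the log2 scale (edgeR, adjusted p = 0.0207), and the strand setting of the counting was not given in the sources used here. The ratio of summed CDC25 to summed WEE1 and PKMYT1 levels on the TPM scale overlapped between the groups (1.7 and 1.92 for WT, 1.64 and 1.73 for Vil-CREPTKO).

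The CDK-activating kinase phosphorylates the other CDKs on their activation loop in every phase and is also part of transcription factor TFIIH. Its subunits Cdk7, Ccnh and Mnat1 had log2 fold changes of 0.09, -0.05 and 0.21, none with an unadjusted p under 0.05. Mnat1 was higher in both Vil-CREPTKO libraries (11.57 and 13.2 CPM against 9.892 and 11.46 CPM).

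Cdk5, a kinase best known from neurons that is activated by p35 rather than by a cyclin, was read at 23.7 and 22.86 CPM in WT and at 14.24 and 15.17 CPM in Vil-CREPTKO. Libraries of the same genotype were close together, and the Vil-CREPTKO mean was 63.2% of that in WT. Cdk5 narrowly missed the adjusted threshold (log2 fold change -0.66 ± 0.14 SE, interval -0.99 to -0.33, unadjusted p = 0.00145, adjusted p = 0.0523 in edgeR's quasi-likelihood test). DESeq2 gave 0.0112. Cdk5r1, which encodes p35, was low, at 26 to 50 counts per library.

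**Figure D3:**
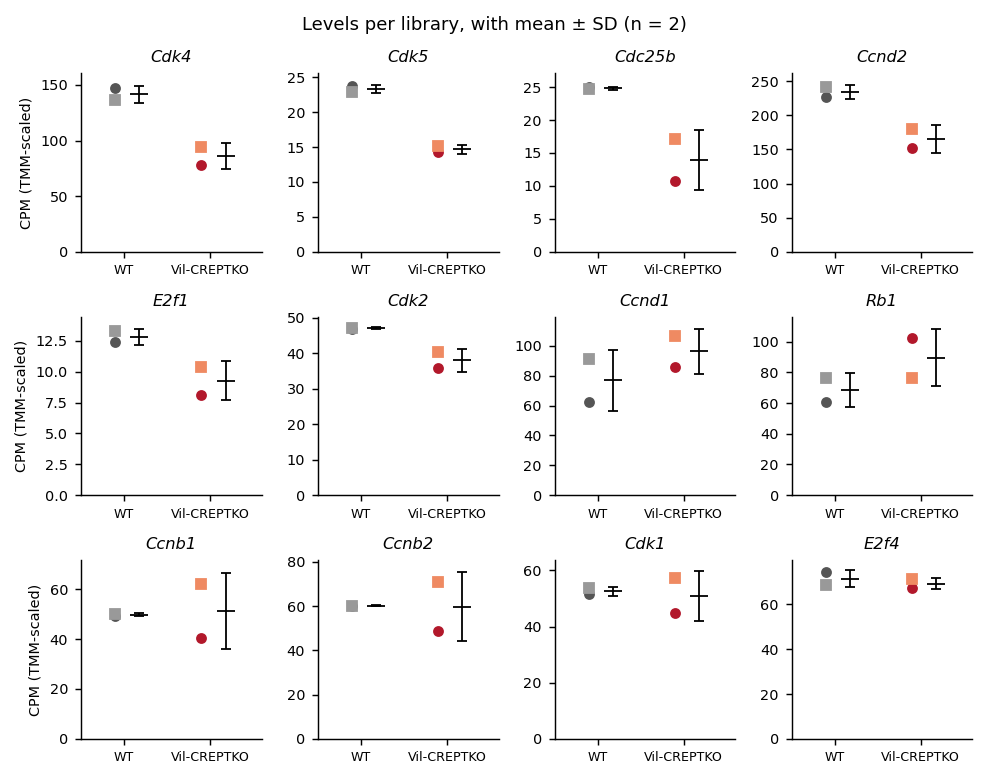
Levels in CPM of 12 genes, with 1 point per library (grey, WT; red circle and orange square, Vil-CREPTKO replicates 1 and 2) and the mean ± SD of the 2 libraries beside them; every axis starts at 0. Cdk4, Cdk5, Cdc25b, Ccnd2, E2f1 and Cdk2 do not overlap between groups, and for Ccnb1, Ccnb2 and Cdk1 the Vil-CREPTKO points bracket the WT points.

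The 2 Vil-CREPTKO libraries differed from each other across nearly the whole list. In 35 of the 37 genes, all but Rb1 and Ccnh, the CPM was lower in Vil-CREPTKO replicate 1 than in replicate 2, whereas 50.1% of all genes tested were lower in replicate 1. Between the WT libraries the corresponding counts were 19 of 37 genes and 49.7% of all genes. For 8 genes (Cdk6, Rbl1, Ccne1, Cks1b, Ccna2, Ccnb1, Ccnb2 and Cdk1), replicate 1 lay below both WT libraries and replicate 2 above both, a pattern held by 7.86% of all genes. The median of the 37 genes relative to the WT mean was -0.179 on the log2 scale in replicate 1 and 0.043 in replicate 2, and for the 9 genes of G2/M it was -0.301 and 0.102. Replicate 1 is the library with the lowest stem cell and the highest enterocyte and mitochondrial readings, and the part of these in the result was not tested.

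Leaving out either Vil-CREPTKO library changed which genes were listed as lower or higher. Without replicate 1, 3 genes were lower at an unadjusted p under 0.05 (Cdk4, Cdk5 and Cdc25b; background 8.94%) and 2 were higher (Ccnb1 and Ccnd1; background 3.06%), with none passing the adjusted threshold. Without replicate 2, 11 genes were lower (background 9.43%), including E2f1, E2f2, Ccnf and Cdc25c, and Rb1 was higher, with Cdk4 and Cdc25b passing the adjusted threshold. Cdk4, Cdk5 and Cdc25b were in the lower group in both cases. Both fits used the same WT libraries, and these genes had the lowest log2 fold changes of the list with all libraries. Their recurrence is therefore not independent evidence. Without replicate 1 the share of lower genes was not above the background.

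**Figure D4:**
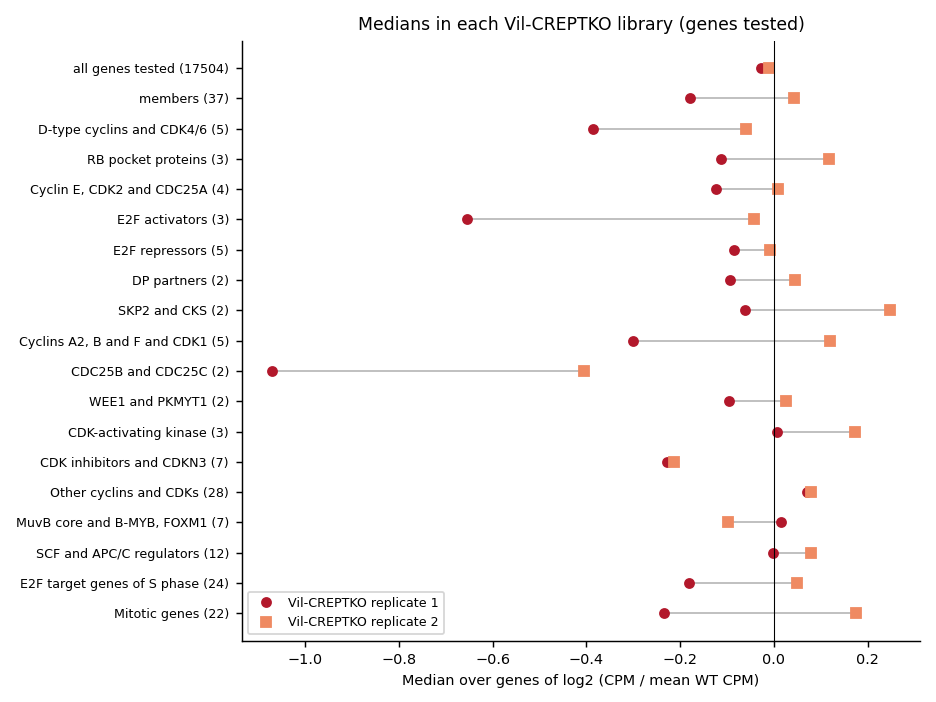
Median log2 ratio to the WT mean over the tested genes of each list (number in brackets), given for Vil-CREPTKO replicate 1 (red circle) and replicate 2 (orange square). Over all genes tested both medians are near 0 (-0.027 and -0.00978), while the mitotic cyclins, the mitotic genes and the E2F target genes lie below 0 in replicate 1 and above 0 in replicate 2.

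Promoter sequences of RefSeq (GRCm38.p6, 250 bases before to 50 bases after a gene start) were found for 26 of the 38 genes, with 32 promoters in all. They were searched on both strands for E2F sites, written as TTCGCGC in the first form, TTGGCGC in the next, TTCCCGC in another and TTGCCGC in the last. They were also searched for the cell cycle homology region (CHR), bound by the MuvB complex in genes of G2/M and written here as TTTGAA. The string TTTCGAA was counted as a CHR match too. The CCAAT box is bound by NF-Y, and the E-box CACGTG, chosen after the Cdk4 promoter had been seen, is bound by MYC. The reverse complement of TTGGCGC ends in CCAA and can overlap a CCAAT box. An E2F site was present in 34.4% of these promoters and in 9.57% of all 32851 promoters, a CHR in 34.4% against 18.5%, a CCAAT box in 50% against 37.4%, and an E-box in 15.6% against 7.15%. The 5 G2/M promoters each held a CCAAT box, and 4 held a CHR match (80%), which in Cdc25b was TTTCGAA only. A match describes letters in this window and not a bound site.

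The following promoters belong to the gene that passed the adjusted test (Cdk4), to 2 further genes with lower readings (Cdc25b and Cdk2), and to 2 mitotic genes whose groups overlapped (Cdk1 and Ccnb2). They are given 5′ to 3′ on the gene's own strand, with the matched motifs in capitals. Cdk4 is at chr10:127063285-127063584 (plus strand), Cdc25b at chr2:131186698-131186997 (plus), Cdk2 at chr10:128705002-128705301 (minus), Cdk1 at chr10:69352863-69353162 (minus) and Ccnb2 at chr9:70421505-70421804 (minus).
Cdk4: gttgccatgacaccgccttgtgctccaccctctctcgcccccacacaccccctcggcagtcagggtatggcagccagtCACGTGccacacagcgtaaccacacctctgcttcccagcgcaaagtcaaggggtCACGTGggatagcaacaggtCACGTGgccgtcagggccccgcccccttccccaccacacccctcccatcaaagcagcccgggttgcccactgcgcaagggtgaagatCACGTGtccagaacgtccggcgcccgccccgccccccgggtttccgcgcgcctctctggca
Cdc25b: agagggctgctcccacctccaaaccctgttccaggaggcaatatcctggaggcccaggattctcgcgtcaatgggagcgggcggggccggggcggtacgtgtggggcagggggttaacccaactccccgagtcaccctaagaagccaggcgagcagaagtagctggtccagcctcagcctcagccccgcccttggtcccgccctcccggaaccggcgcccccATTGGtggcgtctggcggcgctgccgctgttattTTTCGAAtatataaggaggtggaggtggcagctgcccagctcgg
Cdk2: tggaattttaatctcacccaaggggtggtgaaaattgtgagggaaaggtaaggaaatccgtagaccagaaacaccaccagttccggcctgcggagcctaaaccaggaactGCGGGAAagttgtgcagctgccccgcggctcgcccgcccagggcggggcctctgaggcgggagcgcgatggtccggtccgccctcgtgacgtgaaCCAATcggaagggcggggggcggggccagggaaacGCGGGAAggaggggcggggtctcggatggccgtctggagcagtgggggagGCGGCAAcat
Cdk1: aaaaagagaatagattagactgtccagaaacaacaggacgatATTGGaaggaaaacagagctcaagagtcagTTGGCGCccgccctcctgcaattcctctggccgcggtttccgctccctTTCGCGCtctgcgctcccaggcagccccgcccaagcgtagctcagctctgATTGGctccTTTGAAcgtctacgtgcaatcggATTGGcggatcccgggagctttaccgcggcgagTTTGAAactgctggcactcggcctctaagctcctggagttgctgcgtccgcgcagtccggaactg
Ccnb2: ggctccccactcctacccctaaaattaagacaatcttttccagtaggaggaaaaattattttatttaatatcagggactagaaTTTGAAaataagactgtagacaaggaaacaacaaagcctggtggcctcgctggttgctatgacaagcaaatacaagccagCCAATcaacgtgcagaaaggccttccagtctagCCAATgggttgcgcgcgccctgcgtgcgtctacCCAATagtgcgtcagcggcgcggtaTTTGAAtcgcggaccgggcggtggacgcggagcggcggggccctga

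The Cdk4 window held 4 E-boxes and no E2F, CHR or CCAAT match. Cdk2 held 3 E2F matches and 1 CCAAT box. Cdc25b held 1 CHR match, written TTTCGAA, and 1 CCAAT box. Cdk1 and Ccnb2 each held 2 CHR matches, written TTTGAA, and 3 CCAAT matches. Cdk1 also held 2 E2F matches. Whether any of these matches bears on the levels was not tested.

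Other genes of the cycle were read from lists of the same pathway. Of 7 tested CDK inhibitors and CDKN3, 1 passed at an adjusted p under 0.05: Cdkn3, a phosphatase that acts on CDK1 and CDK2, fell from 10.91 and 11.8 CPM to 1.058 and 1.344 CPM (log2 fold change -3.23 ± 0.24 SE, adjusted p = 0.00108 by edgeR). Of these 7 genes, 5 had negative values and 2 had an unadjusted p under 0.05, Cdkn3 and Cdkn1c. Both were also followed by the study with quantitative RT-PCR, so their direction is not taken as independent evidence. Cdkn1c, which encodes p57, was read at 2.938 and 4.937 CPM in WT and at 2.278 and 2.179 CPM in Vil-CREPTKO, lower in both libraries (log2 fold change -0.82 ± 0.32 SE, unadjusted p = 0.0329, adjusted p = 0.284 by edgeR). The inhibitors p21 (Cdkn1a) and p27 (Cdkn1b) both had log2 fold changes of 0.05, at 104% of the WT mean. Of 28 other cyclins and CDKs, Ccng1 rose, from 65.19 and 72.25 CPM to 129.7 and 122.2 CPM (log2 fold change 0.87 ± 0.12 SE, adjusted p = 0.00931 by edgeR). It encodes cyclin G1, known as a p53 target, and none of the 28 fell at this threshold, although DESeq2 called 1 lower. At an unadjusted p under 0.05, 4 of the 28 were lower (14.3%, background 9.76%) and 3 were higher (10.7%, background 4.49%), namely Ccng1, Cdk9 and Cdk5rap1. The lowest fitted value among them was that of Ccna1, a germ cell cyclin, at 12 to 48 counts per library (log2 fold change -1.29, adjusted p = 0.341 by edgeR).

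E2F factors drive a set of S phase genes. Of 24 such targets, 2 fell at an adjusted p under 0.05 and none rose. Tyms, thymidylate synthase, fell from 41.08 and 38.46 CPM to 22 and 24.38 CPM (log2 fold change -0.78 ± 0.13 SE, adjusted p = 0.0202 by edgeR), and Rfc4, a subunit of the clamp loader, fell from 17.88 and 19.2 CPM to 8.674 and 11.34 CPM (log2 fold change -0.89 ± 0.18 SE, adjusted p = 0.0405). Both lay clearly below WT in each Vil-CREPTKO library. The origin licensing gene Cdc6 had the highest value of the list (0.29), and the MCM helicase genes Mcm2 to Mcm7 lay between -0.11 and 0.09. The median of the 24 was -0.0538, with -0.182 in replicate 1 and 0.0498 in replicate 2.

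No gene passed among 22 mitotic genes, 7 genes of the MuvB complex with B-MYB and FOXM1, or 12 regulators of the SCF and APC/C ubiquitin ligases, with either edgeR or DESeq2 at an adjusted p under 0.05. At an unadjusted p under 0.05 the counts were 0, 0 and 2, the last being Ube2c, the mitotic ubiquitin-conjugating enzyme (log2 fold change -0.41), and Skp1, the SCF adaptor (0.32). Foxm1, the transcription factor of G2/M genes, was read at 34.22 and 33.69 CPM in WT and at 20.52 and 31.75 CPM in Vil-CREPTKO. Mki67, the proliferation marker, was read at 307.5 and 331.9 CPM in WT and at 271.8 and 344.9 CPM in Vil-CREPTKO. For Mki67, as for the B-type cyclins, replicate 1 lay below WT and replicate 2 above. The mitotic list had a median of -0.234 in replicate 1 and 0.176 in replicate 2.

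Ordered by length-scaled level, the 37 genes ran from Cks2 (mean 114 TPM) and Cdk4 (98.4 TPM) over Ccnb2 (68.7), Tfdp1 (67), E2f4 (61.8) and Ccnd2 (55.7) to Cdc25c (6) and E2f7 (3.75 TPM). In this order 35 of the 36 neighbouring pairs overlapped in their ranges over the libraries, the exception being Rb1 above Wee1. Cdk4 ranged from 57.9 to 136 TPM, so its place depended on the genotype: it was at 136 and 119 TPM in WT, and at 57.9 and 80.7 TPM in Vil-CREPTKO, where Cks2 (98 and 124 TPM) was above it in both libraries. TPM values here carry no TMM scaling.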

How the data were processed

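Crypt RNA-seq libraries were compared as 2 WT against 2 Vil-CREPTKO, with groups and replicate numbers taken from the sample titles. The deposited values were whole-number read counts per gene, which the authors made from reads mapped with Bowtie2 to GRCm38.p6 and quantified with RSEM. The submitters' processing notes also name CASAVA 1.8. The methods name a BGISEQ sequencer and the labels an Illumina one, and the strand setting was not given in the sources used here. Totals were 47241049 to 49369315 counts per library, so spread between libraries rather than counting limits the precision. Unnamed loci (380 rows, up to 0.247% of counts) were kept.

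Counts were tested with edgeR 4.0.16 (filterByExpr, TMM, quasi-likelihood F test, two-sided) in R 4.3.3, with Benjamini-Hochberg adjustment over 17504 genes. SE is the absolute log2 fold change over the square root of F. DESeq2 1.42.0, other scalings and filters, a likelihood ratio test, a replicate block, a GC and length correction and leaving out each library were the alternatives. Symbols and lengths came from GENCODE M21. The main edgeR fit was tested on simulated data, and the alternatives were not.

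The genes and lists were chosen with earlier results of these data known. Genes were named by role, with per-library values for those at an unadjusted p under 0.05 and those leading a role group, and, of pathway lists, those at an adjusted p under 0.05 and the extremes; Mki67, Cdk5r1, the MCM genes, p21, p27, Cdkn1c, Cdk9, Cdk10, Cdk5rap1 and Cdk5rap3 were added after their values were seen. Marker sums carry no TMM scaling. Marker sums not given in the report, in the order WT 1, WT 2, Vil-CREPTKO 1 and 2, were 14987, 21192, 17891 and 21181 CPM for Paneth cells, 8990, 9095, 6486 and 7202 for goblet cells, 353, 312, 344 and 469 for enteroendocrine cells, 741, 534, 468 and 433 for immune cells, and 0.775, 0.749, 0.614 and 0.58 for smooth muscle.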

Additional observations from a re-analysis of the deposited data

How the results depend on the processing

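The count of called genes (287 at an adjusted p under 0.05 and an absolute log2 fold change above 1) was 447 with library-size scaling, 613 without a filter, 564 with the likelihood ratio test and 474 at any fold change. Of the 37 genes none was called, 1 at any fold change, and 0 to 1 when libraries were left out (Cdc25b, without Vil-CREPTKO replicate 2). The 1 gene at an adjusted p under 0.05 became 4 with DESeq2 (Cdk4, Cdk5, Cdc25b and Ccnd2). Over all genes tested, DESeq2 had 659 lower and 189 higher at this threshold, against 400 and 74 with edgeR, so the background rose too. The 1 gene became 3 without a filter and with the likelihood ratio test, 2 with at least 10 counts in every library, and 0 with the GC and length correction. The counts over all genes at any fold change are not given for these settings. The median ran from -0.174 to 0.0402 when libraries were left out. Library-size scaling moved the median of all genes to -0.0981.

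The replicate numbers were shared between groups, and the deviations of same-numbered libraries correlated at 0.0277. A value over all genes from 2 pairs cannot show whether same-numbered libraries share more than a number, and this was not tested. With the replicate block the count was 2 (Cdk4 and Cdc25b, adjusted p 0.0455 for Cdc25b by edgeR).

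Directions turned for genes near 0. Under library-size scaling, log2 fold changes became -0.0225 for Ccne1, -0.00611 for E2f5, -0.0187 for Tfdp1, -0.00548 for Cks2 and -0.0348 for Ccnb1. Under the GC and length correction they became 0.0759 for Ccnd3, 0.000138 for Rbl1, 0.024 for E2f3, 0.0813 for E2f4, 0.0191 for Ccnb2 and 0.0144 for Pkmyt1. Rbl1 was at 0.0089 with DESeq2, 0.00888 with RLE and 0.0245 with upper-quartile scaling, Ccnb2 at 0.00913, 0.00924 and 0.0237, and E2f3 at 0.0104 with upper-quartile scaling. Leaving out libraries gave -0.262 to 0.0994 for Ccna2, -0.296 to 0.317 for Ccnb1, -0.296 to 0.232 for Ccnb2, -0.18 to 0.0292 for Ccnd3, -0.0636 to 0.182 for Ccne1, -0.0991 to 0.00483 for Ccnh, -0.229 to 0.117 for Cdk1, -0.38 to 0.0985 for Cdk6, -0.138 to 0.336 for Cks1b, -0.0601 to 0.257 for Cks2, -0.13 to 0.0888 for E2f3, -0.0997 to 0.00983 for E2f4, -0.0692 to 0.221 for E2f5, -0.141 to 0.114 for Rbl1 and -0.0186 to 0.222 for Wee1. Where a library was left out, the lone library of its group was assumed to vary like the other group. The causes were not tested.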

Other observations

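Kif11, the motor that separates the spindle poles, was singled out from the mitotic list after its values were seen. It had 150 and 462 counts in WT replicates 1 and 2 and 99 and 446 counts in Vil-CREPTKO replicates 1 and 2. The libraries numbered 1 were thus low and those numbered 2 high in both genotypes, and the cause was not tested.

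Cdk10 and Cdk5rap3, kinase-related genes outside the core cycle, had readings lower in both Vil-CREPTKO libraries. The WT libraries held 13.38 and 11.28 CPM of Cdk10, and the Vil-CREPTKO libraries 8.237 and 6.578 CPM (log2 fold change -0.74). For Cdk5rap3 the levels were 43.47 and 47.66 CPM, then 34.1 and 34.99 CPM (log2 fold change -0.40). Neither passed at an adjusted p under 0.05 with edgeR.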
